A study of Rattus norvegicus with 98 samples.

Results

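A total of 3485 windows of the rat genome, each 1 kb long, were acetylated at lysine 27 of histone H3 (H3K27ac) in most dentate gyrus libraries. Few of the libraries from the other brain regions sampled had peaks that covered 500 bp or more of these windows. Less coverage than that does not show that the mark was absent. Chromosomes 1 to 20 of the Rn5 assembly were cut into 1 kb windows, and a library was said to occupy a window when its peaks covered 500 bp or more of it. A window was kept, and is called a member here, when it was occupied in 6 or more of the 8 dentate gyrus libraries and in 10% or less of the other libraries, which allowed 8 of 84. The 3485 members made up 1.23% of the 284178 windows occupied in 1 or more of these 92 libraries, and 6.32% of the 55112 windows occupied in 6 or more dentate gyrus libraries. Occupancy of the dentate gyrus and of the other regions chose the members, so that contrast is given below as a description without a test.

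H3K27ac was profiled by chromatin immunoprecipitation and sequencing in micropunches of frozen brain from male Long-Evans rats. The rats were aged 2 months when assigned to the treatment groups, and brains were taken after treatment. For 6 weeks the animals drank water with fluoxetine, dosed at 18 mg/kg/day (FT), or water without it (Sham), and each of the 2 replicates per treatment was a pool of several animals. Both treatments were sampled in the dorsal (dorDG) and the ventral (venDG) dentate gyrus, which gave 2 libraries of each kind, and in 22 other regions with 84 libraries. The habenula (HB), with 1 library per treatment, was left out of the rule, and 4 input libraries entered no comparison.

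The dentate gyrus is the entry station of the hippocampus. Its granule cells receive input from the entorhinal cortex and send mossy fibres to CA3, and new granule cells are formed in the adult. The dorsal pole is mostly linked with spatial memory and the ventral pole with anxiety and stress. H3K27ac lies at active promoters and enhancers, and distal enhancers differ more between cell types than promoters do. Fluoxetine blocks the reuptake of serotonin. A micropunch holds every cell type of its site, so more cells of a type and more acetylation per cell cannot be told apart. The members carry no gene names here, since no Rn5 annotation was used, and the tissue labels were therefore not checked against marker genes.

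Both replicate 1 libraries of venDG stood apart at the members. In dorDG, 93.8% (Sham replicate 1) and 96.6% (Sham replicate 2) of members were occupied, and 99.7% in each FT library. In venDG, replicate 2 reached 90.8% (Sham) and 98.1% (FT). In venDG replicate 1, by contrast, 52.1% (Sham) and 54.2% (FT) of members were occupied, although the rule asked for 6 libraries of 8. The FT library of that pair also had the shortest of the dentate gyrus lists, with 34769 peaks, whereas the other 7 lists, its Sham counterpart included, held 43874 to 51458. These 2 libraries held 3264 of the 4005 empty places among members and dentate gyrus libraries (81.5%), and 2350 members (67.4%) were empty in 1 or both of them. Over all windows occupied in 6 or more dentate gyrus libraries, that share was 23.6%. The gap was therefore wider at the members than elsewhere, but the rule leaves no room for windows empty in more than 2 libraries. Over whole lists, compared by the Jaccard index (windows occupied in both divided by windows occupied in either), the Sham library was most like Sham venDG replicate 2 (0.688) and the FT library was most like the Sham venDG replicate 1 library that itself stood apart (0.619). The index with Sham replicate 2 of the centromedial amygdala (CMA), the nearest library outside the dentate gyrus, was 0.637 and 0.57. Those values were slightly above the mean index with the other 7 dentate gyrus libraries, 0.625 for the Sham and 0.568 for the FT library. What set these libraries apart was not tested.

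**Figure D1:**
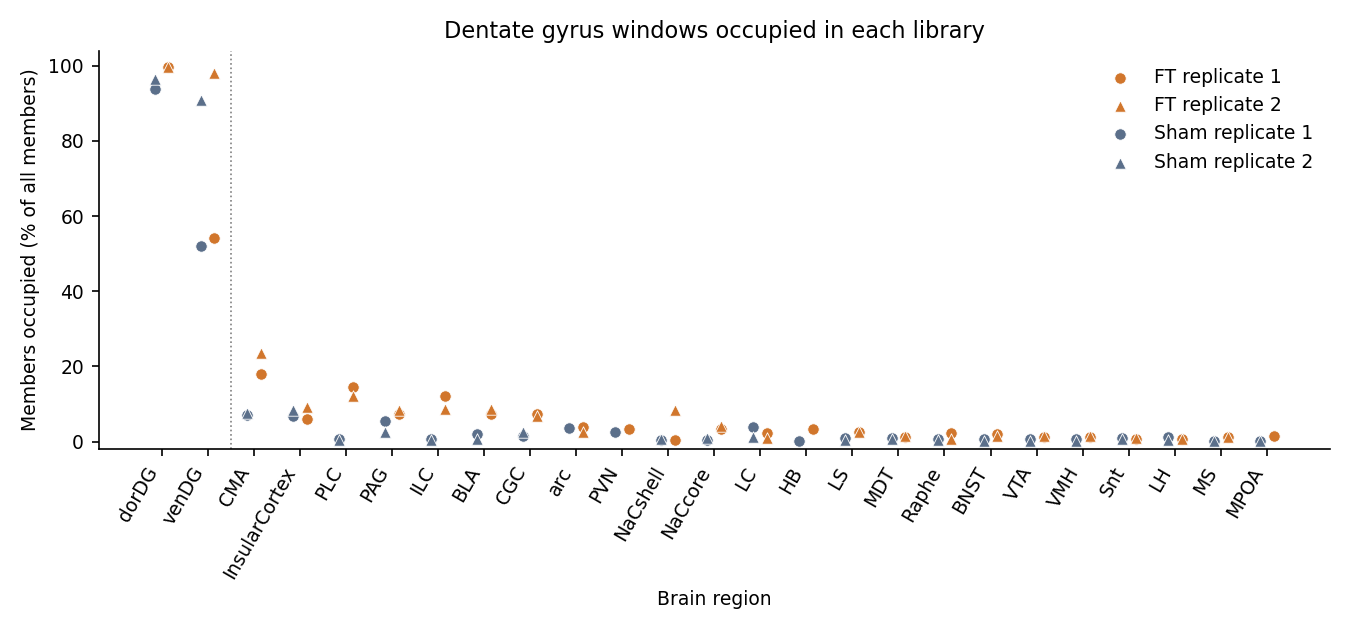
Share of the 3485 members (y axis, percent) that was occupied in each of the 94 libraries, by brain region (x axis), with Sham in blue, FT in orange, replicate 1 as circles and replicate 2 as triangles. The 4 dorDG libraries lie between 93.8% and 99.7%, both venDG replicate 1 libraries near 53%, and the libraries outside the dentate gyrus at 23.7% or below.

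With these 2 libraries left out of the rule (5 or more of the remaining 6 dentate gyrus libraries), 4889 windows were chosen. They included 3426 of the members (98.3% of members and 70.1% of the windows chosen). That overlap was largely fixed in advance, since every member in 7 or 8 of 8 libraries also passes this rule. A member in 6 fails only if both of its empty places lie in the remaining 6 libraries. The overlap therefore cannot show how far the members depend on the ventral replicate 1 libraries. Leaving those out added further windows.

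The members met the rule to different degrees. Of the 3485, 951 (27.3%) were occupied in all 8 dentate gyrus libraries, 1063 (30.5%) in 7 and 1471 (42.2%) in 6. All 4 dorDG libraries occupied 3168 members (90.9%), whereas all 4 venDG libraries occupied 1061 (30.4%). On the other side of the rule, 1120 members (32.1%) were occupied in none of the 84 other libraries, 419 in 1 and 234 in 8, the highest number allowed, with a median of 2. A total of 238 members were occupied in 8 of 8 dentate gyrus libraries and in none of the others. Just outside the rule lay 1886 windows with 5 dentate gyrus libraries and 8 or fewer others, and 252 with 6 or more dentate gyrus libraries and 9 others. These counts are not on the same scale, since 1 library is a larger part of 8 than of 84. Asking for 5 or more of 8 gave 5371 windows, and allowing 20% of the others gave 5721. The number of members thus depended on both limits.

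The same rule gave other pairs of regions as a scale. Among the 210 pairs of the 21 regions with 4 libraries, the dentate gyrus pair ranked number 3, after the locus coeruleus with the periaqueductal grey (LC and PAG, 6479 windows) and the cingulate with the insular cortex (CGC and InsularCortex, 3716 windows), and the median pair had 29. The nucleus accumbens pair (NaCshell and NaCcore) had 558 windows, the amygdala pair (BLA and CMA) 282 and the septal pair (LS and MS) 76. Of the windows restricted to the accumbens, 1.79% were empty in every other library, against 32.1% of the dentate gyrus members. That figure was 1.77% in the amygdala and 5.26% in the septum. It was not taken for the larger pairs, LC with PAG and CGC with InsularCortex. These counts are a description without a test.

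To value windows in libraries that had no part in choosing them, windows were chosen on replicate 1 and read in replicate 2. The choice took windows occupied in 3 or more of the 4 replicate 1 dentate gyrus libraries and in 4 or fewer of the 44 other replicate 1 libraries, 2742 windows in all. In replicate 2, which within a region came from other animals, these windows were occupied at 90.6% (Sham dorDG), 97.5% (FT dorDG), 79.8% (Sham venDG) and 90.6% (FT venDG). Every dentate gyrus library of replicate 2 was thus far above the regions outside it, whose mean was 4.37% over 19 regions and whose highest was the CMA with 18.3%. The dentate gyrus exceeded the other regions by 85.2 percentage points, and the exact permutation test over all 210 choices of 2 regions from 21 gave a two-sided P-val of 0.00476, the smallest it allows. The regions share the pooled animals, so the P-val bears on the regions of these pools.

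The reverse choice was weaker in the ventral pole. On replicate 2, 6608 windows were chosen, and in replicate 1 they were occupied at 73.5% (Sham dorDG) and 95.1% (FT dorDG). In venDG replicate 1 the shares were 33% (Sham) and 33.7% (FT). The dorsal libraries of replicate 1 therefore held most of these windows and the ventral ones far fewer, with 22 other regions at a mean of 4.22% and the CMA again highest with 11.8%. The difference between dentate gyrus and other regions was 54.6 percentage points (exact permutation test over 276 choices, two-sided P-val 0.00362, the smallest it allows). Valued in dorDG alone, it was 80.1 percentage points (exact permutation test over 23 choices, two-sided P-val 0.0435, again the smallest).

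**Figure D2:**
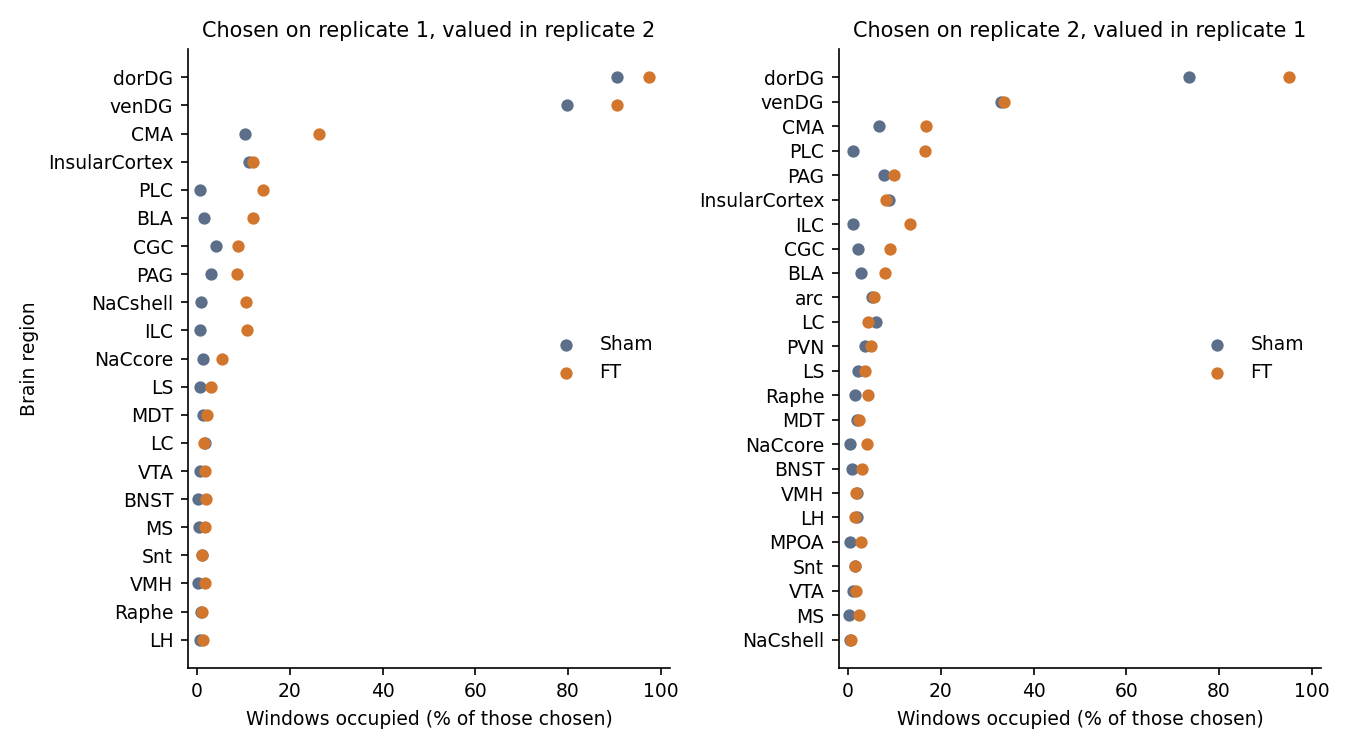
Share of windows (x axis, percent) that were chosen on 1 replicate and found occupied in the other, by brain region (y axis), with 1 point for each Sham (blue) and FT (orange) library. On the left, all 4 dentate gyrus points lie between 79.8% and 97.5%, and on the right both venDG points lie near 33%, above the other regions.

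Choosing windows in one pole and reading them in the other gave an unequal picture. On dorDG alone (3 or more of 4 dorDG libraries, 8 or fewer of the 84 libraries outside the dentate gyrus), 10945 windows were chosen, of which 31.5% were members. Their share in venDG was 36.8% (Sham replicate 2), 47.5% (FT replicate 2), 17.6% (Sham replicate 1) and 18.7% (FT replicate 1). Those values lay above the highest Sham library outside the dentate gyrus (InsularCortex replicate 2, 6.41%) and the highest FT library (CMA replicate 2, 12.9%). The choice itself held the libraries outside the dentate gyrus low and did not use venDG, so that order is a description without a test. On venDG alone, 2680 windows were chosen, 84.3% of them members, and dorDG held 77.4% and 80.7% of them in Sham and 89.3% and 90.8% in FT. The ventral list of restricted windows was thus the shorter one and was mostly found dorsally, while the dorsal list was mostly not found ventrally. Occupancy in 3 of 4 venDG libraries needs at least 1 of the 2 replicate 1 libraries that stood apart. Those 2 libraries also held the lowest shares of the dorsal list. Their part in the unequal picture was not tested.

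The score of the peaks at the members differed between the poles. DFilter, the peak caller, gives each peak a filter score on a scale of its own in each library, so the score was turned into a percentile within its library (0 lowest, 100 highest), and the median was taken over the 951 members occupied in all 8 libraries. In dorDG the median percentile was 62.9 and 70.8 in Sham and 80.2 and 81 in FT (replicates 1 and 2). In venDG it was 37.9 and 55.3 in Sham and 43.3 and 58.8 in FT. All 4 dorsal libraries thus stood above all 4 ventral ones, at a mean of 73.8 ± 8.57 (SD, n = 4) against 48.8 ± 9.86 (SD, n = 4), a difference of 24.9 percentile points (exact permutation test, 70 arrangements, two-sided P-val 0.0286, the smallest it allows). The rule chose these members by occupancy in the same 8 libraries, and score was not independent of occupancy. The median of the mean dorDG percentile was 55.5 at members in 6 dentate gyrus libraries and 74 at those in 8. The P-val therefore describes the chosen windows and cannot show a difference between the poles beyond the choice. Dorsal and ventral libraries with the same treatment and replicate number were taken to come from the same pool of animals, which the methods do not state. In that paired form, the exact sign-flip test over 4 pairs gave a P-val of 0.125, the smallest it allows, with the dorsal library higher in 4 of 4 pairs. The difference was 31 percentile points in replicate 1 and 18.9 in replicate 2. Without the venDG replicate 1 libraries it was 20.5 over the 2803 windows then occupied in all 6 libraries (exact permutation P-val 0.133, 15 arrangements).

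Over all 37904 windows occupied in 8 of 8 dentate gyrus libraries, members included, the median difference between dorDG and venDG was -0.05 percentile points and 49.2% were higher in dorDG. Of the 951 members, 908 (95.5%) were higher in dorDG and 43 in venDG, with a median difference of 24.4. The members thus leaned dorsally while all windows, whose percentiles are set within each list, were balanced between the poles. No test of that contrast was made.

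**Figure D3:**
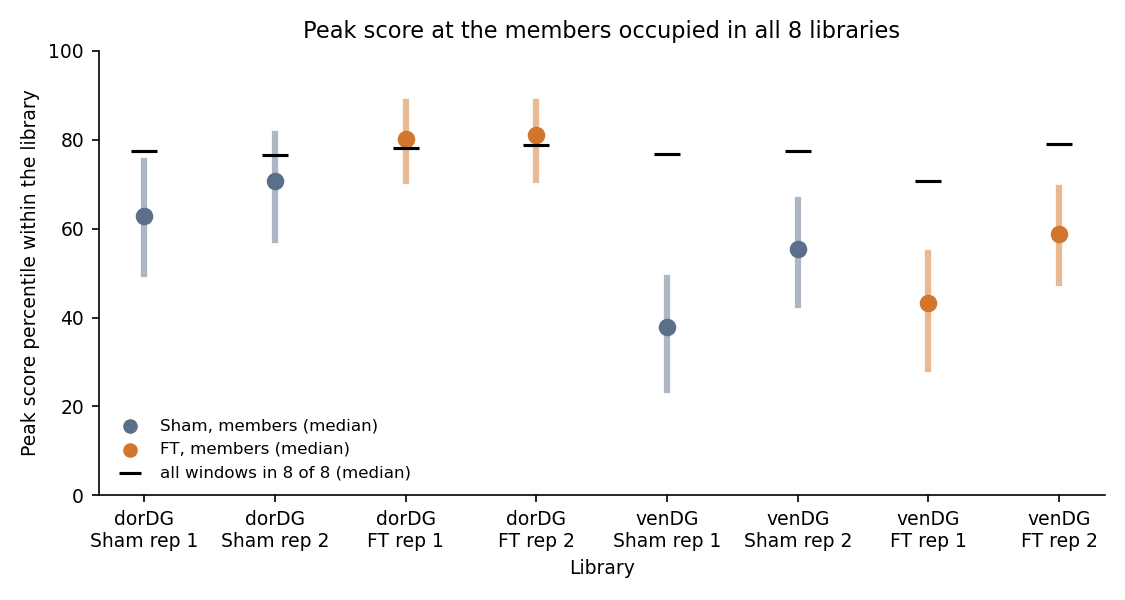
Median peak score percentile (y axis, 0 to 100 within each library) at the 951 members occupied in all 8 dentate gyrus libraries (circles, with the first to the third quartile as bars) for each library (x axis), beside the median of all 37904 windows occupied in 8 of 8 (black dashes). The dorDG members run from 62.9 to 81 and the venDG members from 37.9 to 58.8, while the black dashes stay between 70.6 and 79.

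Occupancy of all members followed the same order. It was used by the rule, so it is described without a test. The share of members occupied was 97.5% ± 2.84 (SD, n = 4) in dorDG and 73.8% ± 24 (SD, n = 4) in venDG, a difference of 23.7 percentage points. It was 43.6 percentage points in replicate 1 and 3.72 in replicate 2, so most of it lay in the libraries that stood apart. Occupied in all 4 dorDG and in 2 or fewer venDG libraries were 1227 members (35.2%), against 6.63% of all windows in 6 or more dentate gyrus libraries. The reverse pattern was seen in 37 members (1.06%), against 1.73%. Either pattern needs a window in exactly 6 of the 8 libraries, as 42.2% of members were. Of the 55112 windows in 6 or more, 37904 were in 8 of 8 and could show neither, so these shares cannot be set level. Of the 1227, 914 were empty in exactly the 2 venDG replicate 1 libraries.

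At the dorsal members, peaks scored higher in the FT than in the Sham libraries, although 2 libraries per treatment cannot pass an exact test on their own. Of the 951 members in 8 of 8, 890 (93.6%) had a higher score percentile in both FT dorDG libraries than in both Sham dorDG libraries, and 1 had the reverse. Over all windows in 8 of 8, these shares were 38.1% and 24.2%. In venDG, 145 members (15.2%) were higher in both FT libraries and 16 (1.68%) in both Sham libraries, against 7.13% and 14.7% over all windows. The FT libraries thus scored higher at nearly all dorsal members, while the ventral libraries of the treatments overlapped at most members. In venDG the replicates lay further apart than the treatments, with a median of 43.3 in FT replicate 1 and 55.3 in Sham replicate 2. That left less room there for both FT libraries to stand above both Sham libraries. The mean of the library medians was 80.6 in FT and 66.9 in Sham dorDG, 13.7 percentile points apart, and 51 and 46.6 in venDG, 4.45 apart. Over both poles the difference was 9.1 percentile points (FT 65.8 ± 18.2, Sham 56.7 ± 14.1, SD, n = 4 each) and did not pass the exact permutation test within poles (36 arrangements, two-sided P-val 0.222, smallest possible 0.0556). The FT library was higher in 4 of 4 pairs with the same replicate number, and the paired sign-flip test gave its smallest exact P-val of 0.125. Both tests count the poles as separate, although dorDG and venDG were taken to come from the same 2 pools per treatment. The smallest P-vals they allow are therefore lower than the pools alone would give. Whether the effect of FT differed between dorDG and venDG was not tested.

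The FT dorDG lists were also the longest of the dentate gyrus, with 49854 and 51458 peaks against 45373 and 44053 in Sham dorDG. With the lists cut to the same number of best-scoring peaks (19378 each) and the members chosen anew, 361 of the 444 members in 8 of 8 (81.3%) were higher in both FT dorDG libraries and 8 in both Sham. Over all 22709 windows in 8 of 8 in those lists, 26.6% were higher in both FT and 35.2% in both Sham. Using the normalised tag count of the peak in place of the score, 841 of 951 (88.4%) were higher in both FT libraries and 4 in both Sham, against 37.2% and 25.5% of all windows in 8 of 8 by that measure. The direction was the same by each of these measures, and the part of list length in the result was not tested further.

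Windows restricted to other pairs of regions did not share one direction. At the windows restricted to LC and PAG and occupied in all 8 of their libraries (2740), both FT libraries were higher at 0.949% in LC (20.7% of all windows in 8 of 8 of that pair) and at 52.6% in PAG (38.7%). At the 931 such windows of CGC and InsularCortex it was 60.3% in CGC (43.6% of all) and 11.2% in InsularCortex (13.9%). At the 55 of the nucleus accumbens it was 81.8% in NaCshell (26.1%) and 83.6% in NaCcore (64.2%). By this share the restricted windows lay above all windows in dorDG, venDG, PAG, CGC, NaCshell and NaCcore, and below them in LC and InsularCortex. Both Sham libraries were higher at 64.1% of the restricted windows in LC (22.2% of all) and at 18.8% in InsularCortex (12.8%). In the others it was 2.3% in PAG (5.37%), 1.07% in CGC (4%), 0% in NaCshell (9.7%) and 0% in NaCcore (2.11%). No test of the difference between regions was made.

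**Figure D4:**
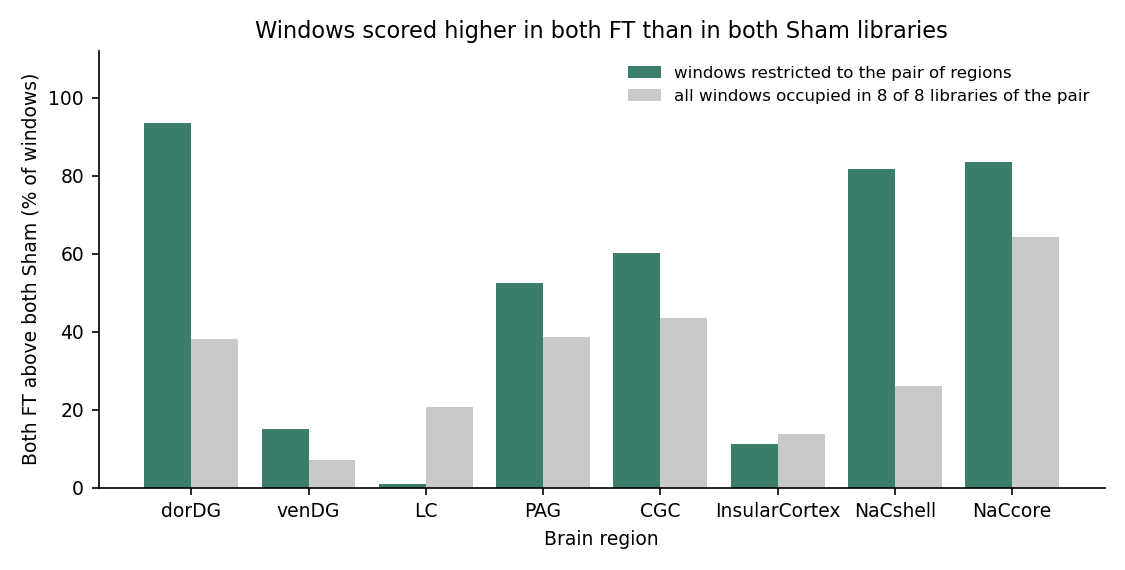
Percent of windows (y axis) with a higher peak score percentile in both FT than in both Sham libraries of a brain region (x axis), for windows restricted to a pair of regions (green) and for all windows occupied in 8 of 8 libraries of that pair (grey). The green bar is 93.6% in dorDG over a grey bar of 38.1%, 15.2% over 7.13% in venDG, and 0.949% under 20.7% in LC.

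Occupancy by treatment is likewise a description, since the rule used the same 8 libraries and left little room above the Sham values in dorDG. FT libraries occupied 87.9% ± 22.5 (SD, n = 4) of members and Sham libraries 83.3% ± 20.9 (SD, n = 4), a difference of 4.61 percentage points, 4.51 in dorDG and 4.72 in venDG. In equal-size lists the same members were occupied at 39.2% and 54.5% in Sham and 70.4% and 70.2% in FT dorDG. In venDG they were occupied at 5.94% and 23.3% in Sham and 19% and 24.9% in FT (replicates 1 and 2). With the members chosen anew on those lists, the FT minus Sham difference was 13.8 percentage points. The treatment difference in occupancy was thus wider in lists of equal size than in full lists. In dorDG, 30 members (0.861%) were occupied in both FT and neither Sham library, against 7.83% of the windows occupied in 1 or more dorDG libraries, and 2 members (0.0574%) showed the reverse, against 1.47%. In venDG the counts were 160 (4.59%, against 1.21%) and 28 (0.803%, against 1.92%). A member empty in 2 libraries of one pole had to be occupied in the other 6, so these shares cannot be set level with those of all windows.

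Windows chosen in one treatment were mostly found in the dorDG libraries of the other, and less evenly in venDG. Chosen on Sham (3 or more of 4 dentate gyrus libraries and 4 or fewer of 42 others), 5609 windows were occupied at 96.8% and 97.4% in FT dorDG and at 48.7% and 89% in FT venDG (replicates 1 and 2). Chosen on FT, 5381 windows were occupied at 71.5% and 78.9% in Sham dorDG and at 29.6% and 60.4% in Sham venDG. The highest share outside the dentate gyrus was 37% for the Sham choice (FT CMA replicate 2) and 6.47% for the FT choice (Sham PAG replicate 1). A Sham choice thus spread further into FT libraries of other regions than an FT choice into Sham libraries. FT lists were also longer than Sham lists in 20 of the 22 other regions and in dorDG. The part of list length in these shares was not tested.

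Outside the dentate gyrus, in full lists taken over both treatments, the CMA and InsularCortex held the highest mean shares of members. The CMA held a mean of 14.1% of members over 4 libraries, from 7% to 23.7%, and 1035 members (29.7%) were occupied in 1 or more of them. InsularCortex followed with 7.56%, the prelimbic cortex (PLC) with 6.86%, PAG with 5.94%, the infralimbic cortex (ILC) with 5.4%, the basolateral amygdala (BLA) with 4.66% and CGC with 4.54%. At the low end were the medial preoptic area (MPOA) with 0.622%, MS with 0.739% and the lateral hypothalamus (LH) with 0.775%. The 6 cortical and amygdalar regions accounted for 62.2% of the 9661 places where a member was occupied outside the dentate gyrus, and the 4 neocortical ones held 1157 members (33.2%) in 1 or more libraries. Over single libraries, the share ran from 0.0574% (Sham replicate 2 of the ventromedial hypothalamus, VMH) to 23.7% (FT CMA replicate 2), with a median of 1.36%. The order depended on treatment and list length. In Sham alone, PAG (4.03%) and the arcuate nucleus (arc, 3.7%) stood above PLC (0.445%) and ILC (0.502%), and in equal-size lists PAG was highest (2.94% in FT and 1.74% in Sham), above the CMA (2.34% and 0.947%). These values are bounded by the rule, which keeps no window found in more than 8 other libraries. Counting any overlap with a peak in full lists, the mean share was higher, from 3.42% (MPOA) to 25.9% (CMA), with 20% in InsularCortex.

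In most other regions, FT libraries occupied more of the members than Sham libraries did, a contrast that was not tested. In the CMA the mean was 20.8% in FT and 7.32% in Sham, in PLC 13.3% and 0.445%, and in ILC 10.3% and 0.502%. In InsularCortex it was 7.6% and 7.52%. The FT mean was higher in 19 of the 22 regions, and of the 19 regions with 4 libraries, 13 had both FT libraries above both Sham libraries and 0 the reverse. List length moved with it, as FT lists were longer in 20 of the 22 regions: PLC had a mean of 52586 peaks in FT and 25103 in Sham, ILC 49272 and 26492, and InsularCortex 51142 and 51588. In lists of equal size, the mean over regions was 0.633% in FT and 0.316% in Sham, higher in FT in 16 of 22 regions, compared with 4.8% and 1.75% in full lists. In those lists dorDG held 58.6% of members and venDG 18.3%, and the highest library elsewhere was FT PAG replicate 2 with 3.04%.

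The members lay away from the windows that were acetylated throughout the brain. The gap to the nearest window occupied in 83 or more of the 92 libraries (90% or more) had a median of 73 kb (quartiles 23 and 202), and 1.35% of members adjoined such a window. For the other 28204 windows in 6 or more dentate gyrus libraries that were not themselves broadly occupied, the median was 16 kb (quartiles 2 and 58) and 23.9% adjoined one. The rule itself leaves out windows shared with many libraries, so the gap is a description and was not tested. Windows occupied in more than 8 libraries outside the dentate gyrus were closer, at a median gap of 6 kb. Of the members, 836 (24%) adjoined such a shared window and 1414 (40.6%) lay 10 kb or more from any.

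**Figure D5:**
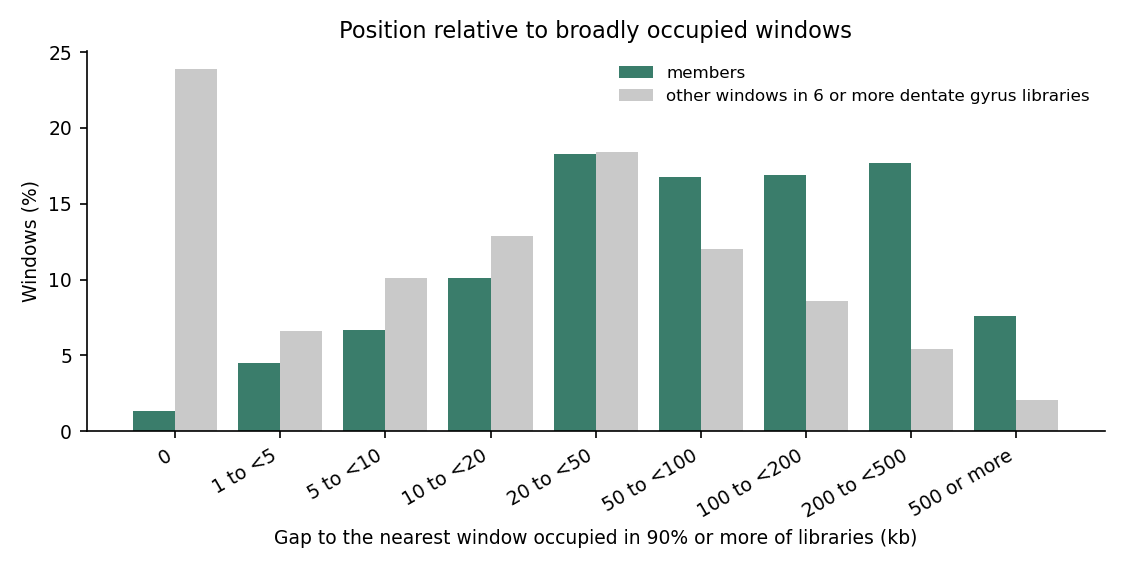
Percent of windows (y axis) by their gap to the nearest window occupied in 90% or more of the 92 libraries (x axis, kb, bins of unequal width), for the 3485 members (green) and the other 28204 windows occupied in 6 or more dentate gyrus libraries (grey). Adjoining windows (gap 0) are 1.35% of the members and 23.9% of the others, and the members exceed the others in each bin from 50 kb upwards.

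Peaks over the members were of ordinary width or wider in the dorsal lists. The median width of the peak covering a member was 1800 and 1900 bp in Sham and 2100 bp in each FT dorDG library, against list medians of 1700, 1600, 1700 and 1700 bp. In venDG replicate 1 it was 1300 bp in both treatments, under the list medians of 1500 bp (Sham) and 1400 bp (FT), and in replicate 2 it was 1600 bp (Sham) and 1700 bp (FT), with 1600 bp for either list. Peaks covered the whole window at 64.5% of occupied members in both FT dorDG libraries, 42.4% and 46.4% in Sham dorDG, and 17.7% to 35.4% in venDG. A peak centre fell within 2232 members (64%) in 4 or more dentate gyrus libraries, close to the 61.9% of all windows in 6 or more dentate gyrus libraries.

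Most members stood alone. They formed 2860 stretches of adjoining windows, of which 2257 (78.9%) held 1 window, 581 held 2 and 22 held 3, the longest seen. Every chromosome carried members, from 69 on chromosome 20 to 413 on chromosome 1. Per 1000 windows in 6 or more dentate gyrus libraries there were 63.2 members over all, fewest on chromosome 20 (45.4) and chromosome 12 (47.3) and most on chromosome 2 (77.9) and chromosome 16 (73.2).

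Of the 3-window stretches, the 10 with the most dentate gyrus libraries, and then the fewest others, are given. The stretch at chr14:11086001-11089000 was the one occupied throughout in all 8 dentate gyrus libraries, with 3 to 7 other libraries per window, among them those of the mediodorsal thalamus (MDT), ILC and arc. At chr5:159038001-159041000 the mean score percentile reached 95.9 and 96.8 in FT and 91.3 and 90 in Sham dorDG, and outside the dentate gyrus it was found in the 2 libraries of the paraventricular nucleus (PVN) alone. The stretch at chr1:138571001-138574000 was found in 0 of 84 other libraries, with dorDG at 62.6 and 78.7 in Sham and 85.7 and 82.9 in FT. At chr8:114707001-114710000 all 6 other libraries were from CGC and InsularCortex. These stretches thus differed in where else they were occupied, from none of the 84 other libraries to those of thalamus, cortex or hypothalamus. The remaining ones lay at chr1:219577001-219580000, chr13:93012001-93015000, chr4:233643001-233646000, chr1:38604001-38607000, chr14:19349001-19352000 and chr1:141246001-141249000.

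Members also gathered over longer spans. Joined over gaps of 50 kb or less, they formed 2242 clusters, of which 1469 held 1 member and 45 held 5 or more, the latter with 291 members (8.35%). The largest, chr1:253496001-253793000, held 18 members over 297 kb. All 18 were occupied in every dorDG library, 18 and 17 in Sham and FT venDG replicate 2, and 10 and 12 in Sham and FT venDG replicate 1. Its mean score percentile was 60.1 and 69.4 in Sham dorDG, 77.9 and 77.3 in FT dorDG, and 28.8 to 50.6 in venDG. The cluster thus repeated at a single locus the order seen over all members. The next clusters were chr4:233643001-233773000 with 12 members, chr19:23733001-23887000 and chr5:103449001-103603000 with 10 each, and chr1:138529001-138629000 with 9. All members of these 4 clusters were occupied in every dorDG library. The last of them was found outside the dentate gyrus in 2 libraries, both FT CMA, whereas the other 4 of the 5 largest clusters were found in 12 to 18.

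Among the 238 members occupied in all 8 dentate gyrus libraries and in 0 of 84 others, the highest median score was at chr10:45681001-45682000. Its score percentile was 94.7 and 97.6 in Sham dorDG, 98.8 and 98.9 in FT dorDG, 75.5 and 88 in Sham venDG and 78.6 and 91 in FT venDG. It thus ranked in the upper part of every dentate gyrus list and was occupied in 0 of 84 other libraries. Next came chr8:43885001-43886000 (median 89.2), chr2:44689001-44690000 (87.1), chr10:103759001-103760000 (84.3) and chr5:68257001-68258000 (84.1). At each of these 5 members both FT dorDG libraries were above both Sham dorDG libraries.

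The members with the widest treatment difference in mean score percentile are described by their values, since they were picked for them. At chr1:263106001-263107000, Sham stood at 38.2 and 34.5 in dorDG and 11.7 and 25.6 in venDG, and FT at 63.1 and 71.4 in dorDG and 42.5 and 58.7 in venDG, so that FT exceeded Sham by 31.4 on average without overlap in either pole. At chr5:128963001-128964000 (30.5) the Sham dorDG libraries themselves lay far apart, at 6.7 and 50.8. At chr13:74401001-74402000 (28.4) they lay at 18 and 60.4. Sham exceeded FT most at chr1:214781001-214782000, where the FT minus Sham difference was -12, followed by chr10:100984001-100985000 (-9.56) and chr11:92268001-92269000 (-7.48). The range was thus wider towards FT than towards Sham, and 900 of the 951 members in 8 of 8 had the higher mean in FT (94.6%, against 48.5% of all windows in 8 of 8).

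Between the poles, the widest dorsal excess was at chr16:9731001-9732000, with 67.4 to 87.4 in dorDG and 8.7 to 36.9 in venDG, a mean difference of 60.4. It was followed by chr1:53975001-53976000 (59.4) and chr2:260136001-260137000 (56). The first of these was found in 0 other libraries, whereas the second was also found in 7 libraries, of the nucleus accumbens and BLA. The widest ventral excess was at chr17:66756001-66757000, where venDG ran from 37.2 to 67.2 and dorDG from 16.2 to 41.6, with a dorsal minus ventral difference of -26.3. The others were chr8:112454001-112455000 (-23.5) and chr9:12812001-12813000 (-20.2). All 3 ventral windows were found in FT CMA replicate 2 as well.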

How the data were processed

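Peak lists of 94 H3K27ac libraries were used. Per the labels, reads were aligned to rn5 with BWA. The study's methods state that the authors called peaks with DFilter for every library, and each replicate has a list of its own. The version of either tool is not given in the sources here. The authors deposited 8 columns per peak: its position and centre, a −log10 p-value (4 to 200, used to filter alternatives), the highest filter score and a normalised tag count rounded to whole numbers (both scores on each library's own scale, used as percentiles within a list), and a false discovery rate in percent, which was 0 throughout. The lists give no read counts, so depth is unknown and counting error was not estimated. Deeper sequencing, better enrichment and more acetylated sites cannot be told apart as sources of a longer list.

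The members and the lists of loci were chosen with earlier results of these data known. Named loci were the 10 longest stretches, the 5 largest clusters, the 5 highest-scoring members in 8 of 8 and 0 of 84 libraries, and the 3 with the widest mean score difference in each direction, by treatment and by pole, with ties broken by more dentate gyrus libraries, fewer others and position. A score percentile belonged to the peak covering most of the window. Starts were read as counting from 0, and printed coordinates count from 1. No Rn5 genome or annotation was used, and neither sequences nor genes are printed. Occupancy of the members was used by the rule and its planned tests are not reported. Where tests were made, labels were exchanged within poles (treatment) or over the 8 libraries (pole), and P-vals measure the spread between pooled libraries, not between animals. Per the study's methods, Sham and FT samples of a replicate were processed in parallel. Between regions, libraries with the same treatment and replicate number were taken to come from the same pool, which the methods do not state. Over windows occupied in 1 to 3 of a region's 4 libraries, the replicate difference in Sham correlated with that in FT at 0.000501 in dorDG and 0.0418 in venDG. The rule and the tests were checked on simulated lists. Python 3.11.15 with numpy 2.4.6 and pandas 2.3.3 was used.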

Additional observations from a re-analysis of the deposited data

Results flagged for a closer look

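By the gap to the nearest library over the range of the 4 libraries of a treatment (Dixon's criterion), some libraries lay apart in the share of members occupied. The rule used that share and lets empty places gather in 2 libraries, so this is a description. Sham venDG replicate 1 held 52.1% against 90.8% to 96.6% in the other 3 Sham dentate gyrus libraries, and FT venDG replicate 1 held 54.2% against 98.1% to 99.7% in the other 3 FT libraries. For values that no rule has chosen, chance alone marks about 1 group in 20, a rate that does not hold for this share. In all, 8 groups of 4 libraries were examined. Both marked libraries were from the same pole and carried the same replicate number, and the cause was not tested.

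The habenula had no part in the rule or in the comparisons. FT HB held 120 members (3.44%) and Sham HB 9 (0.258%), both within the range of the other 84 libraries (0.0574% to 23.7%). The Sham HB list had narrow peaks, with a median of 500 bp against 1600 bp in FT HB, and occupied 10363 windows against 77887.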

How the results depend on the processing

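No read counts were used, and 2 libraries per kind limit every test, so a P-val that misses the threshold does not show that values were alike. The number of members was 3485 and ranged from 2224 to 3596 without each pool in turn, the lowest without Sham replicate 2. It was 1975 with peaks of −log10 p 10 or more, 1739 in equal-size lists, 238 with 8 of 8 and 0 others, 5371 with 5 or more of 8, 5721 with 20% of others allowed, 1637 in 2 kb windows and 6964 in 500 bp windows. The first 2 of these count fewer peaks, the next 3 change the limits on libraries, and the last 2 span 3.27 and 3.48 Mb against 3.48 Mb in 1 kb windows.

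The held-out difference kept its direction and its side of the threshold under all 9 alternatives, from 54.6 to 88.3 percentage points. The dorsal minus ventral score difference kept its direction under all 15 and ran from 20.5 to 38. It no longer passed with the replicate block (24.9, paired over 4 pairs, exact P-val 0.125), with tag counts (31.4, exact permutation P-val 0.0571) or without the 2 venDG replicate 1 libraries (20.5, P-val 0.133, exact permutation), an alternative chosen after seeing the data. Without each pool in turn it was 21.8 to 28.4, at the smallest exact P-val those designs allow, 0.1. The replicate block changed no other call. The FT minus Sham difference in occupancy turned to -6.59 without Sham replicate 1 and -4.02 without FT replicate 2, with 12.7 as the highest such value, since each of these leaves the treatments unequal shares of venDG replicate 1. The FT minus Sham score difference kept its direction under all 15 alternatives (3.84 to 15.1).

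Members that separated FT from Sham numbered 220. They were 131 with 750 bp covered, 71 at −log10 p 10 or more, and 44 to 733 without each pool in turn, where 1 library stands for a treatment and 1 direction alone can occur. Members that separated dorDG from venDG numbered 1264, and 500 in equal-size lists. With a pool left out, no member can meet both rules. Members scored higher in both FT dorDG libraries numbered 890, 409 of 425 at −log10 p 10 or more and 2543 of 2803 without the venDG replicate 1 libraries. The number of clusters (2242) was 2534 with gaps of 20 kb and 1950 with 100 kb.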
